A study of Mus musculus with 2 samples.

Results

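Forkhead (Fox) transcription factors are DNA-binding proteins that share the forkhead domain, a winged-helix fold, and they are named by a letter for the subfamily and a number for the member. The members described here are every gene of the deposited tables whose symbol is Fox, 1 lower-case letter and a number, which gave 31 genes of 19430 in either library. The wild-type library listed 31 of its 17809 genes and the reporter library 24 of its 15972. Foxc1, Foxd1, Foxd3, Foxe1, Foxn1, Foxo6 and Foxp3 were listed in the wild-type library only. A further 13 of the 44 forkhead genes in the GENCODE M21 annotation were in neither table.

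The study profiled single cells of the adult mouse colon to describe its epithelial and mesenchymal populations. The wild-type colon library came from 3 female C57BL/6 mice, 8 to 12 weeks old with no treatment named, whose cells were sorted as CD45-, into an EpCAM+ epithelial and an EpCAM- non-epithelial fraction, and mixed in equal parts before loading on the version 3 kit. The Pdgfra-H2B-eGFP library came from GFP-positive mesenchymal cells of 3 female reporter mice of the same age range, in which a histone-GFP fusion is expressed from the Pdgfra locus, and was made with the version 2 kit; its strain background is not given in the sources used here. Each library pools its mice, so there was 1 library per group, no replicate and no test, and the genotype, the sort and the kit version cannot be told apart.

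The wild-type table held 7495 cells with totals from 6120 to 16389 per cell (median 8972) and a median of 2804 genes. The reporter table held 4409 cells with totals from 2314 to 4432 (median 3150) and a median of 1381 genes. Median mitochondrial shares were 9.07% and 2.33%, and 40.6% of wild-type cells were above 10% mitochondrial counts. The libraries shared 1 cell barcode. Values are counts of transcript tags corrected by the authors to a common depth, so a cell's value can be above 0 with no sequenced molecule behind it, and the original depth of a cell could not be recovered here. Because the tags come from the 3′ ends of transcripts and each library was corrected separately, levels are not compared between genes or between libraries, and only contrasts within a library are set side by side.

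Clusters were named from lists of 10 marker genes, giving 14 classes and 6735 named cells in the wild-type library, and 5 classes and 4177 named cells in the reporter library. Fibroblasts are called crypt top (CTFs-like) and crypt bottom (CBFs1-like and CBFs2-like) after the study's terms. All 10 CTFs markers were highest in the wild-type CTFs-like class, with a summed mean of 37.7 led by Pdgfra at 8.74. For the CBFs2-like class 7 of 10 markers were highest there (summed mean 61.9, led by C3 at 17.1), and for the CBFs1-like class also 7 (39.4, led by Igfbp3 at 14.4). Smooth muscle-like cells were led by Acta2 at 105, goblet-like cells by Spink4 at 161, enteroendocrine-like cells by Pyy at 346, and blood endothelial-like cells by Plvap at 27.2. In the reporter library, 10 CTFs, 9 CBFs2 and 8 CBFs1 markers were highest in their own class. Against the sorts, the wild-type library held 40 immune-like cells, and the reporter library held 114 immune-like and 52 epithelial cells. The reporter CBFs1-like class joins clusters of 1106, 993 and 540 cells, the first led by the stress and inflammation genes Sbno2, Tnfaip3 and Cxcl2 and the last by the chemokine genes Cxcl5 and Cxcl9. These clusters had 0, 1 and 0 CBFs1 markers past 2-fold over the other cells and were named only by a weaker rule, a mean of at least 0.7 of each marker's highest cluster level, so the name is less firm than the others.

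As background, forkhead proteins of the FoxA group open compact chromatin and pattern the endoderm from which the gut epithelium arises, while FoxF and FoxL members act in the gut mesenchyme, where hedgehog ligands from the epithelium sustain their expression. FoxC members act in blood and lymphatic vessels, FoxO members are held out of the nucleus by insulin signalling, FoxP members are repressors with many roles, and Foxm1 drives mitotic genes. In the intestine, Foxl1 is known as a mark of the mesenchymal cells beneath the epithelium that supply Wnt signals to it.

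Of the 31 members, 26 had a mean of at least 0.1 corrected counts per cell in some wild-type class, and 12 did in some reporter class. Foxn3, Foxo1 and Foxp1 reached that level in all 14 wild-type classes. Foxj1, a regulator of motile cilia, was below it in both libraries (125 counts in all wild-type cells, highest class mean 0.0405). Of the members listed in the wild-type library only, those below it were Foxo6 (76 counts, 0.0465), Foxd1 (6 counts), Foxe1 (5 counts) and Foxp3, the factor of regulatory T cells (5 counts). Shares below are cells with a value above 0, with exact Clopper-Pearson 95% intervals that cover counting error only; for a share of 0 the limit given is instead 3 divided by the number of cells. Every wild-type cell was also drawn down to 6000 corrected counts and every reporter cell to 2300, which all cells exceeded, and such shares are called thinned.

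**Figure D1:**
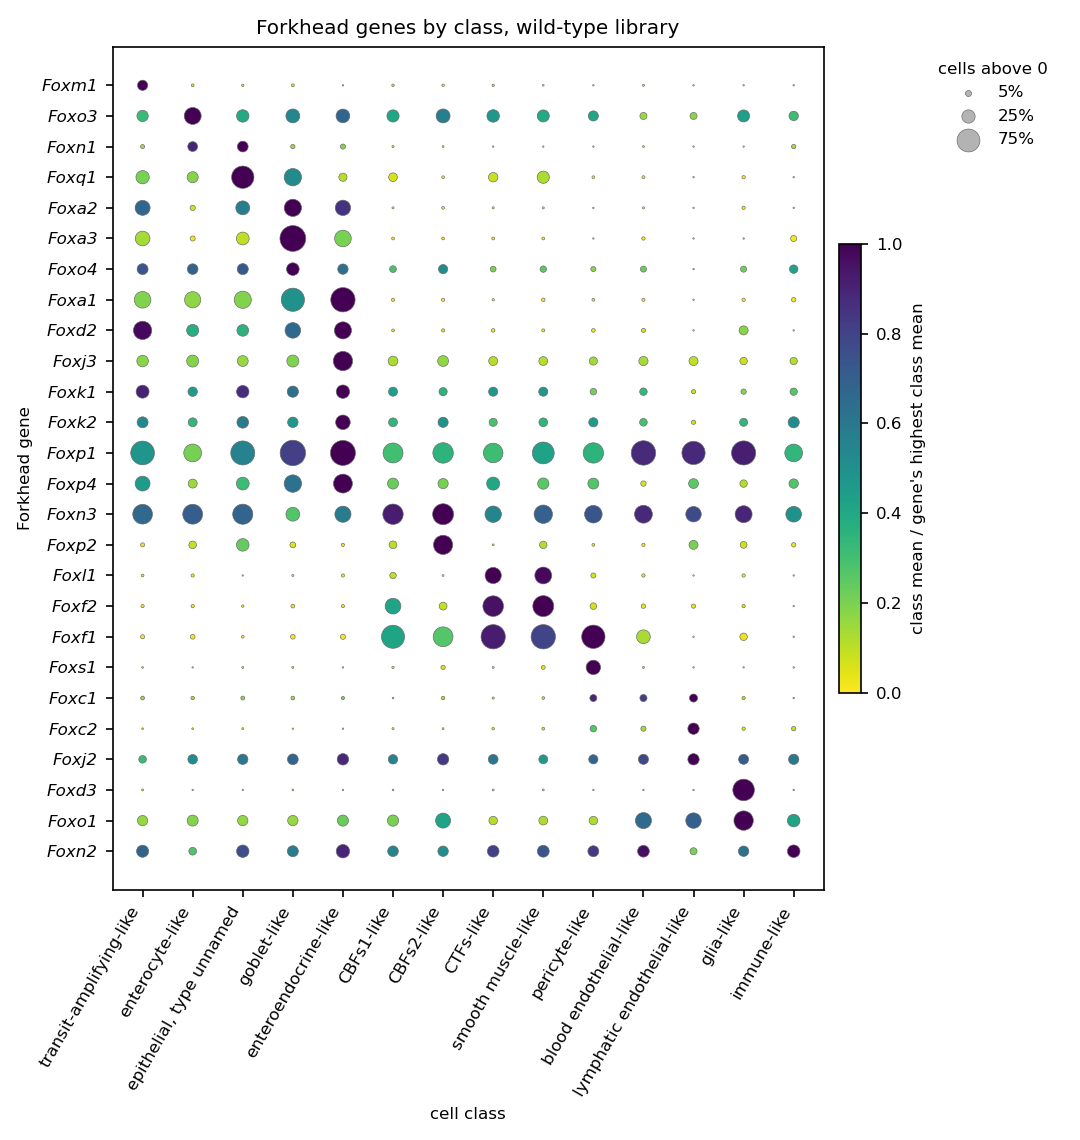
Dot plot of the 26 members that reach a mean of 0.1 in the wild-type library, by class. Dot colour is the class mean divided by the gene's highest class mean and dot size is the percent of cells above 0; Foxa3 peaks in goblet-like, Foxd3 in glia-like and Foxs1 in pericyte-like cells, while Foxn3 and Foxp1 have dots in all 14 classes.

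The promoters of the epithelial FoxA members and of Foxf2 are shown because these genes lay on opposite sides of the division of epithelium from the other cells; the set was chosen after their values were seen. Sequences are from RefSeq on build GRCm38.p6, from 250 bases before to 50 after the start, in the gene's own direction. Foxf2 is at chr13:31625566-31625865 on the plus strand, Foxa1 at chr12:57546062-57546361, Foxa2 (the first of 3 listed) at chr2:148045415-148045714 and Foxa3 at chr7:19023490-19023789, all 3 on the minus strand. Capitals mark matches, on either strand, to the letters searched: a forkhead site TGTTTAC, a GLI site TGGGTGGTC, a TATA box, here TATAAA, a GC box, here GGGCGG, and the letters CCAAT.
Foxf2: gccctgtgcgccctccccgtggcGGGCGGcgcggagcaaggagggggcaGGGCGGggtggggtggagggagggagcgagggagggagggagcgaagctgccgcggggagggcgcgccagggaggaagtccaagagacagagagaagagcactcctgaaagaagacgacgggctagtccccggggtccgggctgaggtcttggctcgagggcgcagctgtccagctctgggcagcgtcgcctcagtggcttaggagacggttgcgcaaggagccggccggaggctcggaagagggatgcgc
Foxa1: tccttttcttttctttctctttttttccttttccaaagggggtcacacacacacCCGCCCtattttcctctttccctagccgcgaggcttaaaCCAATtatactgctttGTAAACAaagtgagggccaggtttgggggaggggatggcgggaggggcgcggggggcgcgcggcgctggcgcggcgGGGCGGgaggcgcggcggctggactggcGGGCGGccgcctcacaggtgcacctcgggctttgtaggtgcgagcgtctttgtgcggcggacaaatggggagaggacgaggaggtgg
Foxa2: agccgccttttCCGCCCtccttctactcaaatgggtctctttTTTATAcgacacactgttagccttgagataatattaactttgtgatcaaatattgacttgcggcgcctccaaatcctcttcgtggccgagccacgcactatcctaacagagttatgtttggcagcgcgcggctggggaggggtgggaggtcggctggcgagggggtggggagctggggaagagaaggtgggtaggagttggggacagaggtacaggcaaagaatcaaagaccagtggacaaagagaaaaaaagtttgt
Foxa3: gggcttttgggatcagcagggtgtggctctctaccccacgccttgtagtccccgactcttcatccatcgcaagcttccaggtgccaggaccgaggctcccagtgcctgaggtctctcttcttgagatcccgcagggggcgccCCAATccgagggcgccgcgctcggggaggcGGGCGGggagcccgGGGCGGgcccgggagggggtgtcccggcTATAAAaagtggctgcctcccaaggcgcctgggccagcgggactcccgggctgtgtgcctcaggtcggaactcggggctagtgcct
The table held 23 promoters of 18 members among 32851. The forkhead letters were in 1 of the 23, that of Foxa1, and in 3.65% of all promoters. The GLI letters were in none of the 23 and in 0.253% of all. The TATA letters were in 3 of 23 and 13.6% of all, with matches in Foxa2 and Foxa3 above. CCAAT was in 10 of 23 and 37.4% of all, and the GC box in 18 of 23 and 35.7% of all, while the median G and C content was 64.0% in the members' promoters and 52.7% in all. A match to these letters is a description of the sequence and not evidence of binding.

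Which forkhead genes divide the epithelium from the rest of the colon was asked by setting the 2480 epithelial cells against the 4255 other named cells of the wild-type library. The FoxA genes and Foxd2 were higher in epithelium, and Foxf1, Foxf2 and Foxl1 were lower. Of the 28 members with at least 20 counts in these cells, 9 were at least 2-fold higher in epithelium, beside 31.1% of all genes tested, and 8 were at least 2-fold lower, beside 17.9%; the higher share of members was 32.1% and the lower share 28.6%. The count on the higher side is near that of all genes and is no result about the family. The median log2 ratio was 0.36 for the members and 0.39 for all genes. In this and every later count, a member could pass the filter through the class where it is high, so the members tested are not all members; Foxd1, Foxe1 and Foxp3 were not tested.

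Foxa1, a pioneer factor of endoderm, was above 0 in 50.6% of epithelial cells and 1.10% of other cells (log2 ratio 5.09). Foxa3 stood at 39.7% and 0.917% (log2 ratio 5.48). For Foxa2 the shares were 27.0% and 0.400% (log2 ratio 4.73). These 3 genes were thus near 0 outside the epithelium, at shares that set the level to be read as background. Foxd2, a member with roles in kidney and other mesenchyme during development, had a log2 ratio of 3.99, Foxn1 3.05, Foxq1 2.64, Foxm1 2.08, Foxo6 1.59 and Foxo4 1.38. Dividing cells carried the Foxm1 ratio. The other 1723 epithelial cells had Foxm1 above 0 in 0.754% (mean 0.00754), beside 0.400% (0.00611) of non-epithelial cells.

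On the other side, Foxf1 was above 0 in 2.34% of epithelial and 67.8% of other cells (log2 ratio -5.60). Foxf2 was above 0 in 1.25% and 36.3% (-4.67), and Foxl1 in 0.645% and 17.9% (-4.13). Of the remaining lower members, Foxd3 and Foxc2 were nearly absent from the epithelium, whereas Foxp2 was not. Foxd3 was above 0 in 3 epithelial cells, a share ratio of 0.0903 (95% interval 0.0181 to 0.278; log2 ratio of means -2.18), with 52 of the 57 other cells above 0 being glia-like, so this ratio tells glia from the rest and not epithelium from the rest. Foxc2 was above 0 in 3 epithelial cells, a share ratio of 0.0919 (0.0184 to 0.283, log2 ratio of means -1.10). Its means were 0.25 in lymphatic endothelial-like, 0.0678 in pericyte-like and 0.0355 in blood endothelial-like cells. Fibroblast classes and smooth muscle-like cells were at 0.00199 to 0.00846, so the Foxc2 ratio tells vessels from the rest more than epithelium from the rest. Foxs1 (-1.69), Foxj1 (-1.34) and Foxp2 (-1.09, 7.30% and 10.7% of cells) were the others. The Foxs1 mean was 0.576 in pericyte-like cells and at most 0.0319 in any other named class. Of the 455 non-epithelial cells with Foxp2 above 0, 265 were CBFs2-like. Foxp2 means were 1.00 in CBFs2-like, 0.106 in CBFs1-like and 0.00251 in CTFs-like cells, beside 0.0794 in epithelium. The Foxp2 ratio thus rests largely on CBFs2-like cells and does not set epithelium below every other class. With a pseudocount of 0.1 in place of 0.01 the ratios of Foxc2, Foxd3, Foxj1, Foxm1, Foxn1, Foxo4, Foxo6, Foxp2 and Foxs1 were under 2-fold; so were Foxc2 and Foxp2 with 15 principal components, and Foxd3, Foxo4 and Foxp2 after thinning to 1000 counts.

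Foxf1, which is needed for the splanchnic mesenchyme that forms the gut wall, had its highest class mean in pericyte-like cells (3.89), followed by CTFs-like cells (3.58), with smooth muscle-like cells next. In pericyte-like cells the smooth muscle markers summed to 69.2 (led by Acta2 at 28.3), beside 65.7 for the pericyte markers. The smooth muscle sum was 258 in smooth muscle-like cells. Foxf1 was lower in CBFs1-like (1.62), CBFs2-like (1.04) and blood endothelial-like cells (0.512). The share of cells above 0 was 84.5% (81.8 to 87.0) in CTFs-like and 85.1% (82.7 to 87.3) in smooth muscle-like cells, intervals that overlap. It was 78.0% (69.4 to 85.1) in pericyte-like, 76.2% (73.6 to 78.7) in CBFs1-like and 56.0% (51.5 to 60.4) in CBFs2-like cells. In transit-amplifying-like epithelium, which should lack the gene, it was 2.11% (1.21 to 3.41), at a median total of 9653 beside 8225 in CTFs-like cells. Thinned shares kept CTFs-like (80.3%), smooth muscle-like (78.6%) and pericyte-like cells (74.6%) above CBFs1-like (63.0%) and CBFs2-like cells (44.0%). Blood endothelial-like cells, at 26.9% (23.3 to 30.6), lay above the epithelial share, while 0 of 44 lymphatic endothelial-like cells had a value, which allows a share of up to 6.82% for cells above 0. General fibroblast markers summed to 26.2 in blood and 38.9 in lymphatic endothelial-like cells, beside 1.97 in transit-amplifying-like cells. Most of both endothelial sums was Vim (15.1 and 31.6), so they follow that gene more than the other markers. The part of fibroblast transcripts in the blood endothelial-like share was not tested.

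Foxf2, the close relative of Foxf1 and a regulator of gut mesenchyme, was highest in smooth muscle-like (mean 1.18) and CTFs-like cells (1.12). The shares were 62.7% (59.5 to 65.8) and 60.7% (57.2 to 64.1), and 35.4% (32.6 to 38.2) in CBFs1-like cells. Unlike Foxf1, it was low in CBFs2-like cells at 8.57% (6.27 to 11.4) and in pericyte-like cells at 5.93%, beside 1.19% (0.545 to 2.24) in transit-amplifying-like cells. Thinned shares were 51.7% in smooth muscle-like, 50.3% in CTFs-like and 26.2% in CBFs1-like cells.

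Foxl1, the mark of subepithelial Wnt-supplying mesenchyme, was at similar class means in CTFs-like (0.636) and smooth muscle-like cells (0.622). The shares above 0 were 37.6% (34.2 to 41.0) and 40.6% (37.4 to 43.8), and 28.8% and 31.4% when thinned. In CBFs1-like cells the share was 5.79%, in CBFs2-like cells 1 cell of 502 (0.199%), and in transit-amplifying-like cells 0.793%, so that the CBFs2-like share is at background.

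Foxp2, a repressor best known from the nervous system and lung, had the opposite placement. It was highest in CBFs2-like cells (mean 1.00), where 52.8% (48.3 to 57.2) were above 0 and 43.0% when thinned. CBFs1-like cells stood at 8.43% (6.88 to 10.2), smooth muscle-like cells at 7.72% and CTFs-like cells at 0.251%, or 2 of 796 cells. Outside the mesenchyme, 22.5% (18.4 to 27.0) of a group of epithelial cells led by Krt36, Defb45 and Fut9, whose type was not named, were above 0, with a mean of 0.238.

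**Figure D2:**
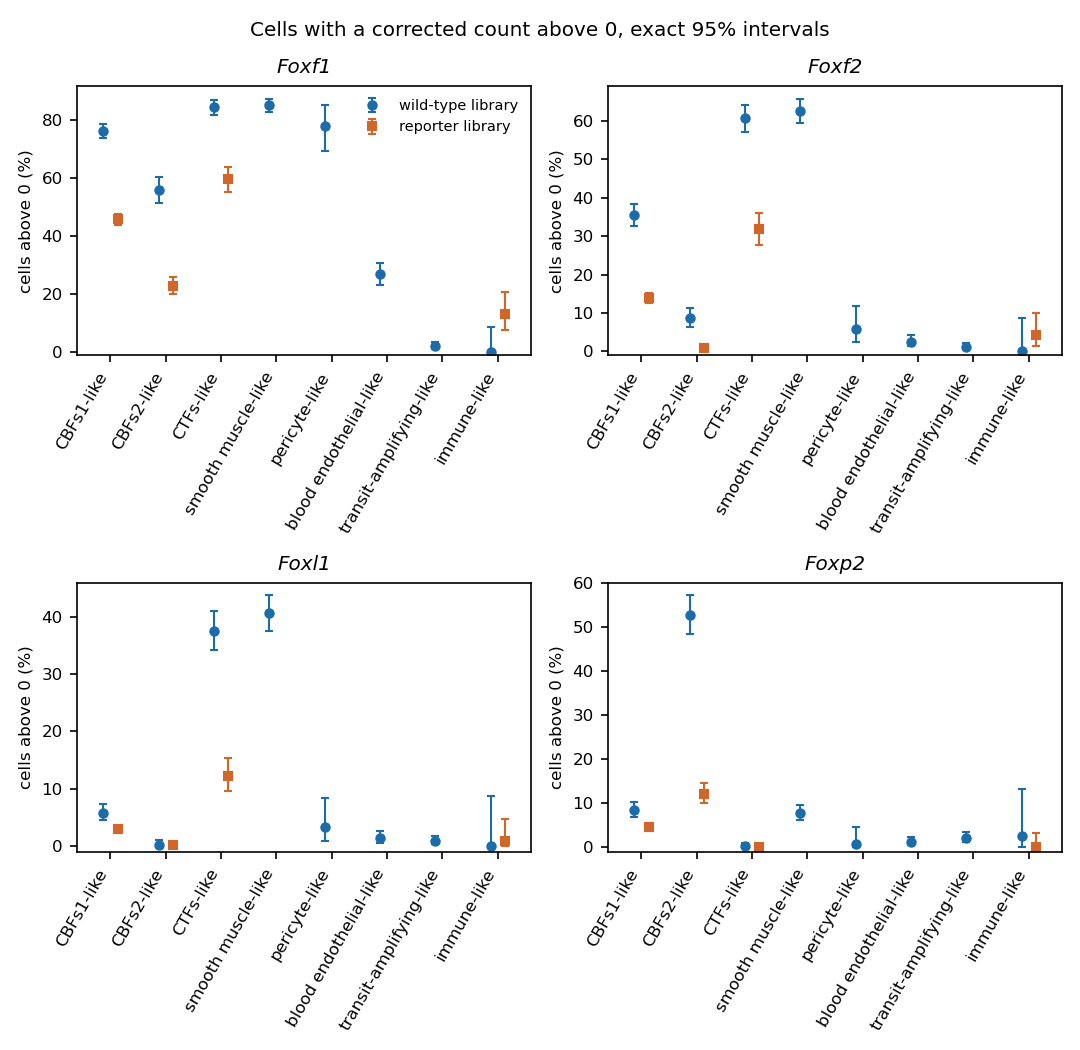
Percent of cells above 0 for Foxf1, Foxf2, Foxl1 and Foxp2 by class in the wild-type and reporter libraries, with 95% Clopper-Pearson intervals for counting error. In the wild-type library Foxl1 is above 0 in 37.6% of CTFs-like and 0.199% of CBFs2-like cells, and Foxp2 in 0.251% and 52.8%.

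The contrast of crypt-top with crypt-bottom fibroblasts compares classes named from markers after the study's terms. Crypt top and crypt bottom stand for these classes, and the place of a cell in the crypt was not measured here. In the wild-type library (796 and 1641 cells), Foxl1, Foxf2 and Foxf1 were higher at the crypt top and Foxp2 and Foxo1 lower. That is 3 of 22 members tested on the higher side, beside 5.06% of all genes, and 2 on the lower side, beside 8.39%; the members' shares were 13.6% and 9.09%. The median log2 ratio was 0.01 for the members and -0.07 for all genes. Foxl1 had a CTFs-like mean of 0.636 and a CBFs-like mean of 0.0451 (log2 ratio 3.55). Foxf2 stood at 1.12 and 0.372 (1.57), and Foxf1 at 3.58 and 1.44 (1.31). For Foxp2, 2 of 796 crypt-top and 361 of 1641 crypt-bottom cells were above 0, a share ratio of 0.0114 (0.00138 to 0.0416; log2 ratio of means -4.96). Foxo1, a target of insulin signalling that restrains growth, stood at 0.116 and 0.273 (-1.17), a ratio that was under 2-fold after thinning to 1000 counts and with a pseudocount of 0.1. Smooth muscle markers moved with this contrast: the 10 summed to 20.1 in CTFs-like cells (led by Acta2 at 10.9), against 2.81 for CBFs1-like and 2.09 for CBFs2-like cells, beside 258 in smooth muscle-like cells, and their part in the ratios of Foxl1, Foxf2 and Foxf1, which were also high in smooth muscle-like cells, was not tested.

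In the reporter library (520 and 3491 cells), whose cells differ from the wild-type ones in genotype, sort and kit, Foxl1 and Foxf2 were again higher at the crypt top and Foxp2 lower. These are 2 of 17 tested members higher, beside 4.52% of all genes, and 1 lower, beside 6.45%; the members' shares were 11.8% and 5.88%. The median log2 ratio was -0.18 for the members, unchanged with Foxp2 put at its bound, and 0.08 for all genes. Foxl1 had means of 0.142 and 0.0232 (log2 ratio 2.20), and Foxf2 of 0.404 and 0.119 (1.68). Foxp2 was above 0 in 0 of 520 CTFs-like cells, which allows a share of up to 0.577%, and in 225 of 3491 CBFs-like cells (6.45%), so it was at least 14.2-fold lower on a floor of 3 counts over the class. Foxf1 (0.82) and Foxo1 (-0.35) were within 2-fold there. With a pseudocount of 0.1 the reporter ratios of Foxl1 and Foxp2 were under 2-fold. Here too smooth muscle markers moved along, the 9 listed summing to 11.5 in CTFs-like cells (led by Tagln at 5.77), against 0.692 for CBFs1-like and 0.434 for CBFs2-like cells, beside 10.5 for the CTFs markers in their own class; Tagln and Acta2 are among the genes that lead the CTFs-like cluster.

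Among the 17 members tested in both libraries, 15 (88.2%) had log2 ratios of the same sign for crypt top over crypt bottom, beside 67.8% of the 11528 genes tested in both. Foxf2, Foxl1 and Foxp2 (17.6%) were past 2-fold the same way, beside 7.49% of genes. Foxk1 and Foxo3 had opposite signs. Whether the ratios differ between the libraries was not tested.

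The crypt-bottom classes were then compared with each other. In the wild-type library (502 CBFs2-like and 1139 CBFs1-like cells), Foxp2 was higher in CBFs2-like cells (log2 ratio 3.12), and Foxl1, Foxq1 and Foxf2 were lower. Of 19 members tested, 4 were higher, beside 6.47% of all genes, and 3 lower, beside 4.15%; the members' shares were 21.1% and 15.8%, and the median log2 ratio was 0.23 beside 0.07 for all genes. Foxs1 (1.30), Foxj1 (1.10) and Foxo1 (1.01) were the other higher members, the first at 2.39% against 0.527% of cells and Foxj1 at 2.99% against 1.05%. Pericyte markers summed to 2.12 in CBFs2-like and 1.38 in CBFs1-like cells, and their part in the Foxs1 ratio was not tested. Foxl1 was above 0 in 1 CBFs2-like and 66 CBFs1-like cells, a share ratio of 0.0344 (0.000858 to 0.198; log2 ratio of means -2.63). Foxq1 fell from 10.5% of CBFs1-like to 0.797% of CBFs2-like cells (-2.52), and Foxf2 had a log2 ratio of -2.06, while Foxf1 at -0.64 was within 2-fold. Ratios of Foxj1, Foxl1, Foxo1 and Foxs1 were under 2-fold with a pseudocount of 0.1, as were Foxj1 without cells above 10% mitochondrial counts and Foxo1 with forkhead genes among the variable features.

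In the reporter library (852 and 2639 cells), Foxp2 was again higher in CBFs2-like cells (1.61), and Foxf2 (-2.99), Foxl1 (-1.85), Foxf1 (-1.10) and Foxq1 (-1.08) were lower. That is 1 of 17 higher, beside 3.35% of all genes, and 4 lower, beside 5.62%; the members' shares were 5.88% and 23.5%. The medians were -0.22 for the members and -0.20 for all genes. Foxl1 was above 0 in 1 and 78 cells, a share ratio of 0.0397 (0.000993 to 0.228), and Foxq1 in 1 and 33 cells, a share ratio of 0.0939 (0.00231 to 0.561). The ratios of Foxf1, Foxl1, Foxp2 and Foxq1 were under 2-fold with a pseudocount of 0.1, and that of Foxf1 also after thinning to 1000 counts. Over both libraries 17 members were tested and 13 (76.5%) had the same sign, beside 66% of the 11244 genes tested in both. Foxf2, Foxl1, Foxp2 and Foxq1 (23.5%) were past 2-fold the same way, beside 5.51% of genes, though the reporter shares of Foxq1 were no higher than in immune-like cells. Foxj2, Foxj3, Foxn3 and Foxo4 had opposite signs.

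**Figure D3:**
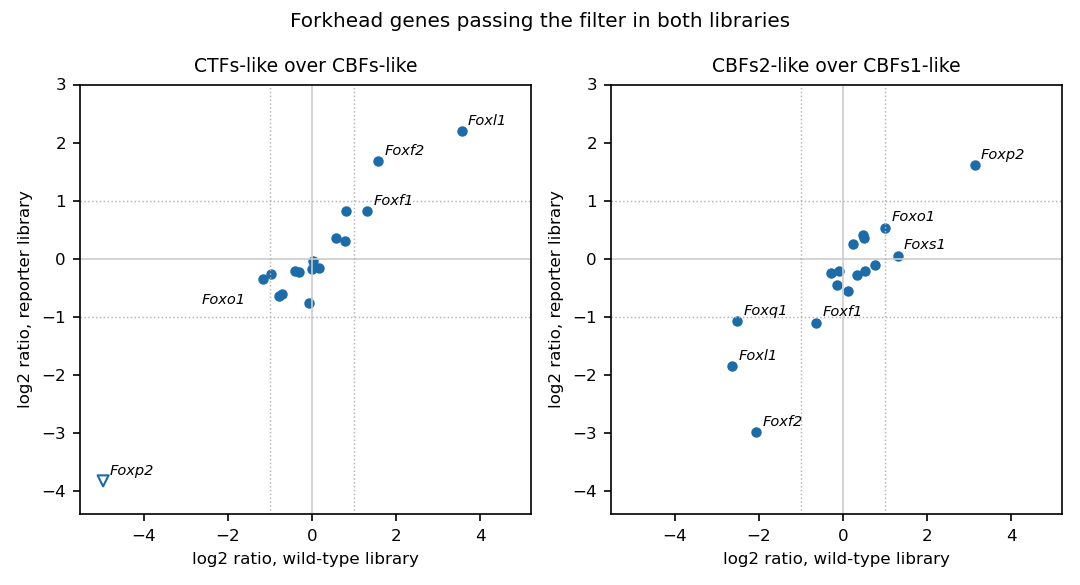
Log2 ratios of class means in the wild-type library (horizontal) against the reporter library (vertical) for the 17 members tested in both, for CTFs-like over CBFs-like and for CBFs2-like over CBFs1-like cells; dotted lines mark 2-fold and members past 2-fold in either library are named. For crypt top over crypt bottom Foxl1 lies at 3.55 and 2.20, and Foxp2, at -4.96 in the wild-type library from 2 cells above 0, is drawn as an open triangle at its reporter bound of at least 14.2-fold lower.

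The reporter library also held cells that the GFP sort should have left out, but they are no clean background. Their 10 general fibroblast markers summed to 20.7 in epithelial cells (led by Col3a1 at 5.56) and 23.4 in immune-like cells (led by Dcn at 6.81), beside CTFs-like cells at 35.4, CBFs1-like at 60.9 and CBFs2-like at 93.1, with none of the markers at 0; the part of these transcripts in the shares below was not tested. Foxf1 was above 0 in 13.2% (7.56 to 20.8) of the 114 immune-like cells (median total 3670) and in 21.2% (11.1 to 34.7) of the 52 epithelial cells (3802.5). CTFs-like cells at 59.6% (55.3 to 63.9; median total 3116) and CBFs1-like cells at 45.7% (43.8 to 47.7; 3178) stood higher, and CBFs2-like cells were at 23.0% (20.2 to 26.0; 2858). Thinned shares were 48.7%, 35.6% and 18.9%, in the same order of classes. Foxf2 was above 0 in 31.7% (27.7 to 35.9) of CTFs-like, 13.9% of CBFs1-like and 0.939% of CBFs2-like cells, the last below the 4.39% of immune-like cells. Foxl1 stood at 12.3% (9.61 to 15.4) of CTFs-like, 2.96% of CBFs1-like and 0.877% of immune-like cells. Foxq1 was low in all 3 fibroblast classes, from 0.117% to 1.35%, beside 1.75% of immune-like cells. Foxp2, at 12.2% (10.1 to 14.6) of CBFs2-like and 4.59% of CBFs1-like cells, was above 0 in none of the immune-like cells, which allows up to 2.63%.

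Smooth muscle-like cells (946) were set against the 2437 named fibroblasts to ask whether the family tells muscle from fibroblast. Foxl1 (log2 ratio 1.35; 384 of 946 against 366 of 2437 cells) and Foxq1 (1.08; 21.2% against 9.19%) were higher and Foxp2 was lower (-1.04). That is 2 of 22 members higher, beside 5.27% of all genes, and 1 lower, beside 10.3%; the members' shares were 9.09% and 4.55%, and the medians -0.08 and -0.12. The pooled fibroblasts hide unlike classes: smooth muscle-like Foxl1 (0.622) was not above that of CTFs-like cells (0.636), and smooth muscle-like Foxp2 (0.119) was above CTFs-like cells (0.00251), near CBFs1-like cells (0.106) and below CBFs2-like cells (1.00). Foxf2 (0.92) and Foxf1 (0.53) were within 2-fold. The ratios of Foxp2 and Foxq1 were under 2-fold after thinning to 1000 counts and with a pseudocount of 0.1, and that of Foxp2 also with 15 principal components. The smooth muscle-like class includes a cluster of 60 cells with a median of 1689.5 genes, fewer than the 2623 of the class as a whole.

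Foxq1, a factor of mucus-producing and hair follicle epithelium, was thus not limited to the epithelium. Its highest class mean was in the epithelial cells of unnamed type (2.28), 71.4% (66.6 to 75.9) of which were above 0, or 59.3% when thinned. Goblet-like cells followed at 43.0% (39.1 to 47.0; mean 1.18), then transit-amplifying-like (25.1%; 0.468), enterocyte-like (17.4%; 0.415) and enteroendocrine-like cells (9.30%; 0.256). In the mesenchyme, smooth muscle-like cells stood at 21.2% (18.7 to 24.0), CTFs-like at 12.6% and CBFs1-like at 10.5%, while CBFs2-like cells (0.797%) and blood endothelial-like cells (1.01%) were low. An antisense neighbour, A530084C06Rik, overlaps Foxq1 and had 69 wild-type and 5 reporter counts; how strand was used in counting is not given in the sources used here, so tags may be shared.

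The secretory cells of the epithelium (723 goblet-like and enteroendocrine-like cells) were compared with the absorptive, enterocyte-like cells (622). All 3 FoxA genes, Foxp1 and Foxp4 were higher in secretory cells and Foxn1 was lower. Of 22 members tested, 7 were higher, beside 27.2% of all genes, and 2 lower, beside 10% of all genes; the members' shares of 31.8% and 9.09% are near these, so the counts are no result about the family. The medians were 0.51 for the members and 0.46 for all genes. The log2 ratios were 5.69 for Foxa3, 3.56 for Foxa2, 2.08 for Foxp4, 1.99 for Foxp1, 1.71 for Foxa1, 1.34 for Foxq1 and 1.07 for Foxn2, and -2.25 for Foxn1 and -1.16 for Foxn3. Goblet-like cells alone carried the Foxq1 ratio, since the enteroendocrine-like mean (0.256) was below the enterocyte-like one (0.415). Foxn2 was under 2-fold at another clustering resolution, with 15 principal components, without cells above 10% mitochondrial counts and with a pseudocount of 0.1; Foxn3 after thinning to 1000 counts and with a pseudocount of 0.1; and Foxq1 with 15 principal components and without cells above 10% mitochondrial counts.

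Foxa3 separated the goblet-like cells most clearly, with a mean of 3.04 and 95.6% (93.7 to 97.1) of cells above 0, 83.8% when thinned. In enteroendocrine-like cells it stood at 39.5% (29.2 to 50.7; mean 0.628), in transit-amplifying-like cells at 30.8%, and in enterocyte-like cells at 3.38% (mean 0.0434), beside 0.879% in CTFs-like cells. Median totals were 9993 in goblet-like, 9695.5 in enterocyte-like and 8225 in CTFs-like cells. Foxa2, which with Foxa1 acts in the making of secretory cells, was likewise low in enterocyte-like cells (3.70%; mean 0.0418) and higher in goblet-like (42.5%, 38.7 to 46.5; mean 0.614), enteroendocrine-like (33.7%, 23.9 to 44.7; 0.523) and transit-amplifying-like cells (32.0%; 0.413). Foxa1 differed from both, since it was highest in enteroendocrine-like cells (mean 2.74; 84.9%, 75.5 to 91.7) and still above 0 in 37.5% of enterocyte-like cells (0.463), beside 0.503% (0.137 to 1.28) of CTFs-like cells. Its goblet-like share was 77.2% (73.8 to 80.4; mean 1.37), or 58.6% when thinned.

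Foxn1, the gene lost in nude mice and needed in thymic and skin epithelium, was placed on the absorptive side. It was above 0 in 16.4% (12.8 to 20.5) of the epithelial cells of unnamed type and in 13.5% (10.9 to 16.4) of enterocyte-like cells, the former at 10.3% when thinned. Goblet-like (2.35%) and transit-amplifying-like cells (2.11%) were lower, and none of the 946 smooth muscle-like cells had a value, which allows up to 0.317%. Within the enterocyte-like class, singled out after its values were seen, the cluster of 411 cells led by Sptssb and Cyp2c55 had Foxn1 above 0 in 17.3% and Foxp2 in 2.43% of cells, and the cluster of 211 cells led by Atp12a and Saa1 in 6.16% and 19.0%. Foxo3, a FoxO member that promotes stress resistance and cell-cycle exit, was highest in enterocyte-like cells (mean 0.635; 41.0%, 37.1 to 45.0), followed by enteroendocrine-like cells (0.430), and lowest in blood endothelial-like cells (0.0946; 6.93%).

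**Figure D4:**
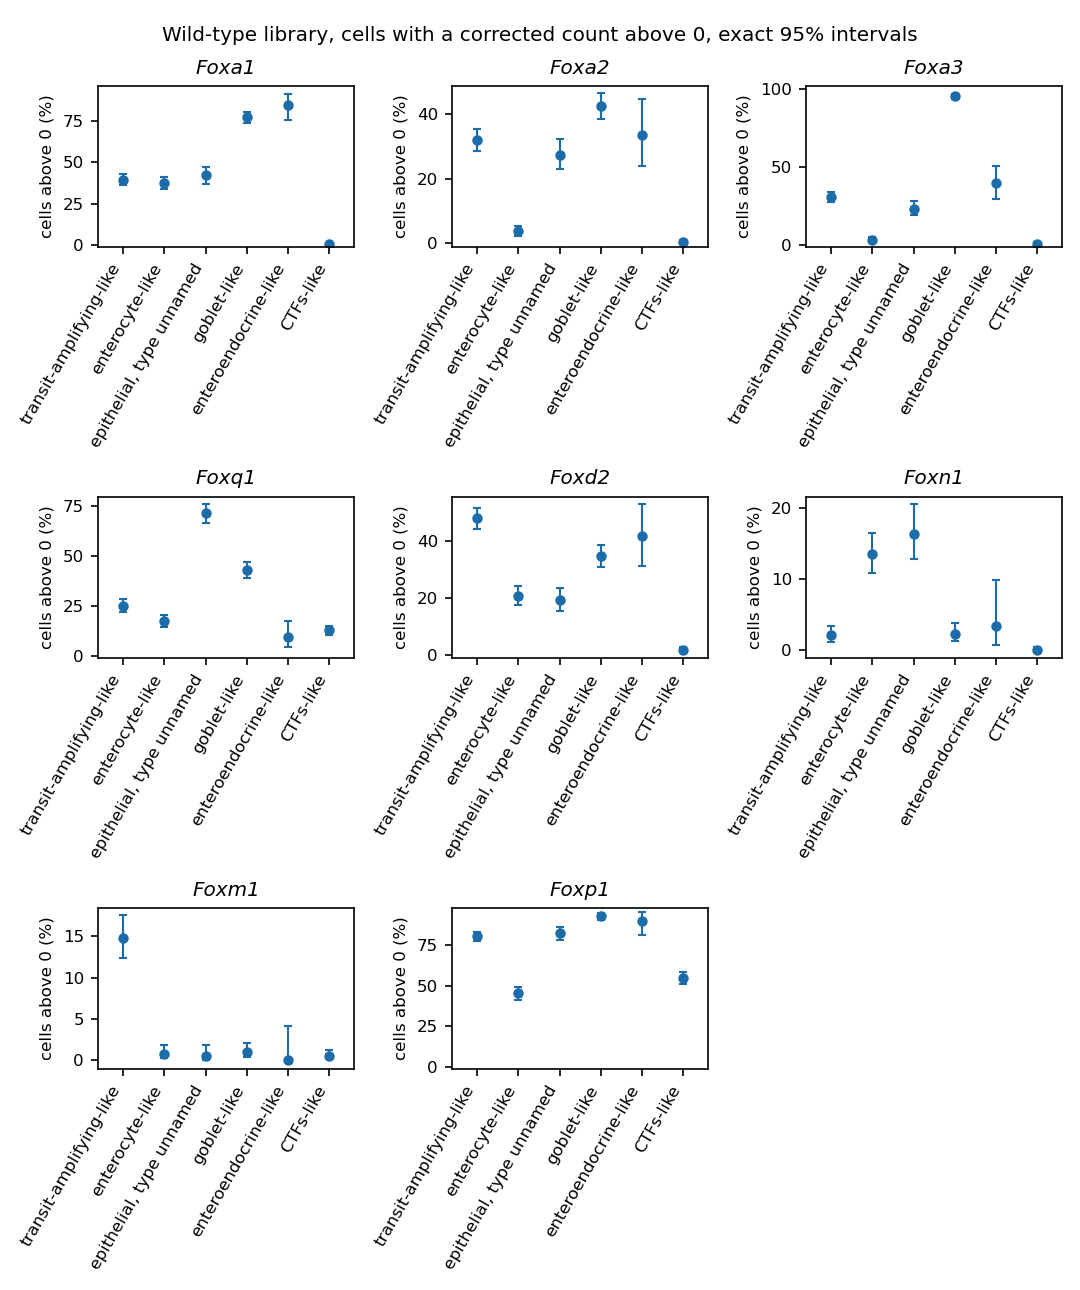
Percent of cells above 0 for Foxa1, Foxa2, Foxa3, Foxq1, Foxd2, Foxn1, Foxm1 and Foxp1 in 5 epithelial classes and, for comparison, CTFs-like cells of the wild-type library, with 95% Clopper-Pearson intervals. Foxa3 is above 0 in 95.6% of goblet-like and 3.38% of enterocyte-like cells, Foxm1 in 14.8% of transit-amplifying-like cells.

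The dividing cells (757 transit-amplifying-like cells) were set against the other 1723 epithelial cells. No class was named stem-like, and the 10 stem markers also summed highest in this class (14.7, beside 9.13 in goblet-like cells). Stem cells, a separate cluster in the study, were thus not set apart from it here. Dividing is a name for the class and not for each of its cells. Foxm1 alone was past 2-fold higher, 1 of 23 members tested, beside 10.9% of all genes, and 5 were lower, beside 10.8%; the members' shares were 4.35% and 21.7%. The medians were -0.09 for the members and 0.07 for all genes. Foxm1, which activates genes of mitosis, was above 0 in 14.8% (12.3 to 17.5) of dividing and 0.754% of other epithelial cells (log2 ratio 3.38; 9.91% of dividing cells when thinned). Its 3′ end overlaps Tex52 on the same strand, which had 9 counts. Foxn1 (-1.82), Foxp2 (-1.63), Foxa3 (-1.56), Foxq1 (-1.21) and Foxo3 (-1.05) were lower. The other epithelium pools unlike classes: dividing cells had more Foxa3 (0.413) than enterocyte-like cells (0.0434), more Foxq1 (0.468) than enterocyte-like (0.415) and enteroendocrine-like cells (0.256), and Foxn1 (0.0251) close to goblet-like cells (0.0267). Foxd2 at 0.92 was within 2-fold, with 48.1% (44.5 to 51.7) of transit-amplifying-like, 41.9% of enteroendocrine-like and 34.7% of goblet-like cells above 0, against 1.51% of CTFs-like cells. Foxo3 was under 2-fold at another resolution, with forkhead genes among the variable features, without cells above 10% mitochondrial counts and with a pseudocount of 0.1; Foxp2 with 15 principal components, after thinning to 1000 counts and with a pseudocount of 0.1; Foxq1 with 15 principal components; and Foxn1 with a pseudocount of 0.1. Foxm1 and Foxn1 had too few counts to be tested after thinning to 1000 counts, which left no member higher.

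Endothelial cells (592 blood and 44 lymphatic endothelial-like cells) were compared with the other 6099 named cells. Foxc1, Foxc2, Foxo1 and Foxp1 were higher, 4 of 28 members tested, beside 6.59% of all genes; 16 were lower, beside 31.1%. The members' shares were 14.3% and 57.1%, and the medians were -1.34 for the members and -0.57 for all genes, the former the same when the 1 member at 0 is put at its bound. Foxc1, a factor of vessel and eye development, was above 0 in 7.08% of endothelial and 1.13% of other cells (log2 ratio 2.24). Foxc2, needed for lymphatic valves, stood at 4.56% and 0.492% (2.00). Foxo1, which restrains vessel growth, stood at 36.6% and 16.4% (1.73), and Foxp1 had a log2 ratio of 1.04.

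On the lower side the log2 ratios were -4.49 for Foxq1, -3.70 for Foxa3, -3.66 for Foxa1, -3.18 for Foxf2, -2.91 for Foxl1, -2.17 for Foxp2, -2.13 for Foxd2, -2.04 for Foxp4, -1.61 for Foxo3, -1.56 for Foxf1 and -1.08 for Foxo4. Those with 1 or 2 endothelial cells above 0 were Foxa2, with a share ratio of 0.0280 (0.00339 to 0.102), Foxn1 at 0.0516 (0.00130 to 0.291), Foxm1 at 0.137 (0.0164 to 0.504) and Foxs1 at 0.249 (0.0296 to 0.931). Foxd3 was above 0 in none and at least 6.12-fold lower, but 52 of the 60 other cells above 0 were glia-like, and no class besides glia-like cells had more than 2. The other named cells include the epithelium, where the FoxA genes were high. Non-epithelial cells, endothelium among them, had means of 0.0139 for Foxa1 and 0.0122 for Foxa3. The blood endothelial-like clusters of 494 and 98 cells had Foxa1 at 0.0202 and 0.0102, and Foxa3 at 0.0202 and 0.0408. Lymphatic endothelial-like cells had neither. The Foxa1 and Foxa3 ratios, among the 16 lower, thus set apart epithelium and not endothelium. For Foxp2 the endothelial classes went opposite ways, with a lymphatic mean of 0.205 (5 of 44 cells above 0) above the 0.155 of the other named cells and a blood endothelial-like mean of 0.0135 below it. With a pseudocount of 0.1 Foxc1, Foxc2, Foxd3, Foxm1, Foxn1, Foxo4, Foxp1 and Foxs1 were under 2-fold. So were Foxc1 with 15 principal components, Foxp1 without cells above 10% mitochondrial counts, Foxo4 with pooled scaling, and Foxd3, Foxo4, Foxp2 and Foxp4 after thinning to 1000 counts.

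Within the vessels, Foxc2 was highest in lymphatic endothelial-like cells (18.2%, 8.19 to 32.7; mean 0.25), with 5.93% of pericyte-like and 3.55% (2.21 to 5.37) of blood endothelial-like cells above 0. Goblet-like cells had 0 of 637, which allows up to 0.471%; median totals were 7910 in lymphatic endothelial-like and 9993 in goblet-like cells. Foxc1 was at like shares in lymphatic endothelial-like (9.09%, 2.53 to 21.7), blood endothelial-like (6.93%, 5.02 to 9.28) and pericyte-like cells (6.78%), beside 0.377% in CTFs-like cells. The blood endothelial-like class held a cluster of 98 cells led by Selp, Madcam1 and Ackr1, genes of venules that recruit leukocytes, and a cluster of 494 cells. Singled out after its values were seen, the smaller cluster had Foxc1 above 0 in 30.6% of cells against 2.23%, Foxc2 in 11.2% against 2.02% and Foxo1 in 54.1% against 33.4%. The smaller cluster also had more genes per cell (median 2677 against 2002.5), whose part in these shares was not tested.

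Foxs1, a factor of perivascular cells, was highest in pericyte-like cells (mean 0.576), where 29.7% (21.6 to 38.8) were above 0, or 21.2% when thinned. CBFs2-like cells stood at 2.39% and smooth muscle-like cells at 1.90%, and 0 of 622 enterocyte-like cells had a value, which allows up to 0.482%. Foxd3, which marks neural crest and its glial descendants, was found in glia-like cells, 66.7% (55.1 to 76.9) of which were above 0 (mean 2.15; 62.8% when thinned), while no other named class had more than 2 such cells. Glia-like cells (78, median total 7898.5) also had the highest mean of Foxo1 (1.01; 53.8%, 42.2 to 65.2), followed by lymphatic (0.705) and blood endothelial-like cells (0.667; 36.8%, 32.9 to 40.9), with CTFs-like cells lowest (0.116). Gm38034, which overlaps Foxo1 on the same strand, had 266 wild-type and 33 reporter counts. Foxd2 was above 0 in 11.5% (5.41 to 20.8) of glia-like cells, against 1.69% of pericyte-like cells.

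**Figure D5:**
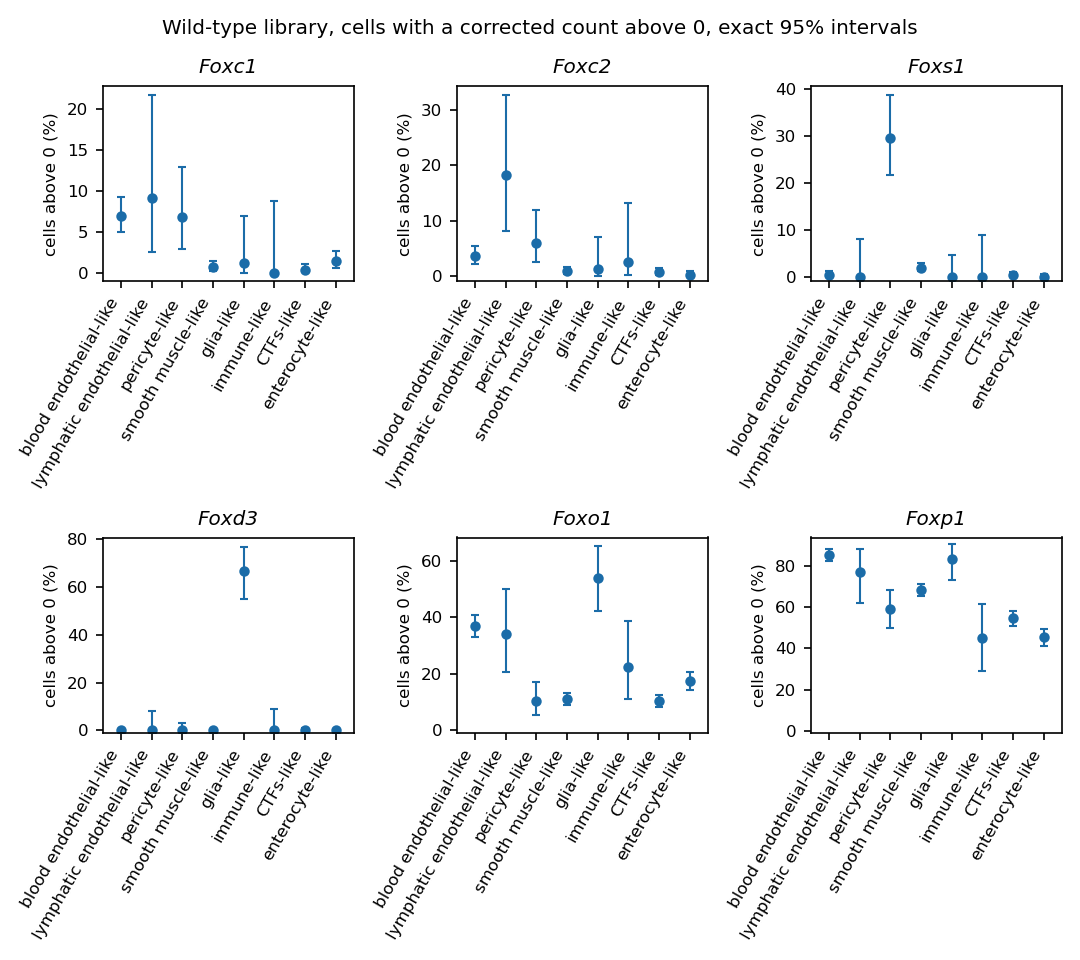
Percent of cells above 0 for Foxc1, Foxc2, Foxs1, Foxd3, Foxo1 and Foxp1 in wild-type classes, with 95% Clopper-Pearson intervals for counting error. Foxd3 is above 0 in 66.7% of glia-like cells, Foxs1 in 29.7% of pericyte-like cells and Foxc2 in 18.2% of lymphatic endothelial-like cells.

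The members found in every class still varied among them. Foxp1, a repressor with roles in heart, lung and lymphocytes, ranged from 3.35 in enteroendocrine-like cells to 0.696 in enterocyte-like cells. Glia-like (3.06), lymphatic (2.98) and blood endothelial-like (2.95) and goblet-like cells (2.71) were on the high side, and CBFs2-like (1.19), CTFs-like (1.06) and CBFs1-like cells (1.01) on the low side. It was above 0 in 92.8% (90.5 to 94.7) of goblet-like and 45.3% (41.4 to 49.3) of enterocyte-like cells, or 80.2% and 32.3% when thinned. Gm20696, on the same strand, overlaps Foxp1 and had 462 wild-type and 48 reporter counts. Foxn3, a checkpoint factor and repressor, was highest in CBFs2-like (1.17; 62.7%) and CBFs1-like cells (1.08; 59.4%) with glia-like (1.05) and blood endothelial-like cells (1.04) close to them, and lowest in goblet-like cells (0.320; 27.2%).

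Foxp4, a partner of Foxp1 in lung and gut development, was highest in enteroendocrine-like (0.814; 51.2%) and goblet-like cells (0.512; 43.3%), and lowest in blood endothelial-like cells (0.0473; 3.89%). Foxj3 was above 0 in 53.5% (42.4 to 64.3) of enteroendocrine-like cells (1.13) and at most 0.220 on average elsewhere; Frg2f1, antisense to it, had 182 wild-type and 25 reporter counts. Foxk1 and Foxk2, regulators of metabolism and autophagy, were also highest in enteroendocrine-like cells, at 0.279 and 0.337, and lowest in lymphatic endothelial-like cells, both at 0.0227. Enteroendocrine-like cells had the highest median number of genes (3718.5), and the part of depth in these values was not tested. Foxo4 was highest in goblet-like cells (0.239; 22.8%). Foxn2 ranged from 0.325 in immune-like to 0.0682 in lymphatic endothelial-like cells, and Foxj2 from 0.25 in lymphatic endothelial-like to 0.0806 in transit-amplifying-like cells.

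In the reporter library, 8 other members reached the level of 0.1. Foxn3 was highest in CBFs1-like cells (0.537) and Foxp1 in immune-like cells (0.509), with CTFs-like cells lowest for Foxp1 (0.213). Foxo3 was highest in the epithelial cells (0.154), Foxn2 in immune-like cells (0.105) and Foxp4 in CTFs-like cells (0.104). Foxa1 (0.192), Foxa3 (0.192) and Foxm1 (0.115) reached the level in the 52 epithelial cells. Foxa2, Foxc2, Foxd2, Foxj1, Foxj2, Foxj3, Foxk1, Foxk2, Foxo1, Foxo4, Foxq1 and Foxs1 stayed below it.

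Several members lie side by side in the genome. On chromosome 13 Foxq1, Foxf2 and Foxc1 span 256343 bases, and on chromosome 8 Foxf1, Foxc2 and Foxl1 span 46259 bases. The class with the highest mean differed between neighbours: it was the epithelial type left unnamed for Foxq1, smooth muscle-like cells for Foxf2 and lymphatic endothelial-like cells for Foxc1, and pericyte-like cells for Foxf1, lymphatic endothelial-like for Foxc2 and CTFs-like for Foxl1. Other high classes were shared, since Foxf1 and Foxl1 were both high in CTFs-like and smooth muscle-like cells. Several highest classes were near ties. The Foxf1 means of pericyte-like and CTFs-like cells differed by only 1.09-fold, and those of Foxc1 in lymphatic endothelial-like and pericyte-like cells by 1.12-fold. Between smooth muscle-like and CTFs-like cells, Foxf2 differed by 1.05-fold and Foxl1 by 1.02-fold. Fendrr, a non-coding RNA transcribed away from Foxf1, was listed in the reporter library only, where its mean fell from CTFs-like (0.165) over CBFs1-like (0.115) to CBFs2-like cells (0.0704), the same order as Foxf1. Gmds, the gene next to Foxc1, had means of 8.46 in goblet-like, 2.34 in enterocyte-like and 0.263 in CTFs-like cells.

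Genes tied to the family were followed as fixed lists, beside the shares past 2-fold and the median of all genes given above for each comparison. Of the 11 hedgehog genes, upstream of Foxf1 and Foxl1, 2 were past 2-fold higher in epithelium and 7 lower (median -2.66). Those counts stand beside 31.1% and 17.9% of all genes. The ligand gene Ihh was the higher one of the 3 named by rule (5.02), and the receptor gene Ptch1 (-4.11) and the antagonist gene Hhip (-5.52) were lower. In CTFs-like over CBFs-like cells of the wild-type library, Ptch1, itself a target of the pathway, stood at 1.61 and Hhip at -1.86. For the same contrast of reporter cells Hhip was at -1.57 and Ptch1 was not past 2-fold. In CBFs2-like over CBFs1-like cells, Hhip was higher (1.02) and Ptch1 lower (-1.04) in the wild-type library, and Ptch1 was lower in the reporter library (means 0.124 and 0.371), 8 genes being tested in each. Smooth muscle-like cells had Hhip higher than fibroblasts (6.11), 1 of 9 genes, beside 5.27% of all genes. However, Hhip is among the smooth muscle markers that named the class. Secretory over absorptive cells had 4 of 6 higher (median 1.58), beside 27.2% of all genes, with Smo at 2.71, Ihh at 1.84 and Ptch1 at 1.32. Dividing cells had Smo higher (1.46), 1 of 9, beside 10.9%. Endothelium had 1 of 11 higher and 9 lower (median -2.41), beside 6.59% and 31.1%.

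The 15 mitotic genes linked to Foxm1 were all past 2-fold higher in dividing over other epithelium (median 3.97), with Top2a at 5.05, Birc5 at 4.84 and Cdk1 at 4.60. Since genes of this kind lead the cluster, their rise describes how it was formed. In epithelium over other cells 14 were higher and 0 lower (median 3.16), beside 31.1% and 17.9% of all genes. In endothelium 13 were lower (median -1.91), beside 31.1%. Dividing cells are pooled into both comparisons. Epithelial cells other than the dividing ones had Birc5 at 0.0842, Top2a at 0.0522 and Cdk1 at 0.0650. Non-epithelial cells had 0.0362, 0.0813 and 0.0343, and endothelial cells 0.0346, 0.0959 and 0.0283. Of 13 tested in secretory over absorptive cells, Kif20a and Top2a were higher, beside 27.2% of all genes. Among fibroblasts, Ccnb2 was the 1 of 12 tested that was higher in wild-type CTFs-like cells (1.09), beside 5.06% of all genes. It was the 1 of 4 in reporter cells (1.38), beside 4.52%, and none was lower. Its means were low, at 0.0867 and 0.0353 in the wild-type and 0.0442 and 0.0109 in the reporter library. Counts this small are no result about the list. Cenpf was lower in wild-type CBFs2-like than CBFs1-like cells (-1.78), 1 of 8, beside 4.15% of all genes. Ccnb2 (-1.39), Cenpf (-1.78) and Birc5 (-1.32), 3 of 12, were lower in smooth muscle-like cells than in fibroblasts, beside 10.3%.

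All 12 secretory and endocrine genes linked to FoxA were higher in secretory than absorptive cells (median 5.91), beside 27.2% of all genes. In epithelium over other cells 11 were higher (median 4.89), beside 31.1%, and Isl1 was lower. In secretory over absorptive cells Muc2, the main mucin, had a log2 ratio of 6.73 and the hormone gene Gcg 8.56. The hormone gene Pyy had means of 41.2 and 0.151 there. Neurod1, Pyy and Gcg also named the enteroendocrine-like class, so this direction is partly given by the naming. In dividing epithelium all 12 were lower (median -2.73), beside 10.8% of all genes, but the other epithelium pools the secretory cells. Dividing cells had Muc2 at 4.54, Gcg at 0.103 and Pyy at 0.120, beside 1.82, 0.0434 and 0.151 in enterocyte-like cells. In endothelium 10 were lower (median -3.22), beside 31.1%, against cells that include the epithelium. Endothelial means of Muc2, Gcg and Pyy were 1.13, 0.0110 and 0.0252, beside 0.846, 0.0294 and 0.0402 in non-epithelial cells.

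For the 10 lymphatic and vascular genes linked to FoxC, 7 of 9 tested were higher in endothelium (median 4.46), beside 6.59% of all genes. Sox18 stood at 7.39, Flt4 at 5.84 and Prox1 at 2.36. In epithelium 6 of 9 were lower (median -2.80), beside 17.9%, but the cells set against epithelium include the endothelium. Sox18 had a mean of 0.0109 in epithelium and 0.00803 in the named cells outside endothelium, and Flt4 0.00242 and 0.00164. Sox18 is among the leading genes of a blood endothelial-like cluster and Flt4 among those of the lymphatic one, so the endothelial direction is partly given by how the classes were formed. Secretory over absorptive cells had 4 of 6 higher, beside 27.2% of all genes. Among them were Dll4 (4.07) and Prox1 (3.14), which also act in the secretory and endocrine lineages of the gut.

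The 17 genes linked to FoxO had members both higher and lower in several comparisons. In endothelium 1 was higher and 6 lower (median -0.44), beside 6.59% and 31.1% of all genes and a median of -0.57, so the list lay near all genes; the higher one was Klf2 (2.71), a flow-induced factor. In secretory over absorptive cells 6 were higher and 2 lower (median 0.75), again near the 27.2% and 10% of all genes. There Ccng2 (-3.87) and Gadd45a (-1.09) were lower and thus higher in enterocyte-like cells. In epithelium over other cells 1 was higher and 5 lower (median -0.29), beside 31.1% and 17.9% of all genes. Ccng2 stood at 1.78, Klf2 at -2.17 and Txnip at -1.75 there. In dividing cells 3 were higher and 4 lower (median 0.02), beside 10.9% and 10.8%. CTFs-like cells had Gadd45a and Cited2 past 2-fold higher in the wild-type library (1.58 and 1.30), and in reporter cells Gadd45a at 1.77 and Cited2 with means of 0.565 and 0.252, there with Fbxo32 (1.12). Fbxo32 (1.92) and Gadd45a (1.21) were higher in smooth muscle-like cells than in fibroblasts.

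A fixed rule on class means took Foxf1 and Foxp1 as the members whose profiles were compared with those of other genes; the choice says nothing about levels between genes. Among 6730 genes compared over the 14 wild-type classes, the genes whose profile was most like that of Foxf1 were Ednra (Pearson correlation 0.967), Rem1 (0.964) and Pla2r1 (0.961). For Foxp1 they were Sgms1 (0.870), Puf60 (0.833) and Tecpr1 (0.826). These are descriptions over classes of a single library, which share its depth and processing.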

How the data were processed

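The deposited tables were used as whole-number corrected counts (unit score): the authors counted molecules with Cell Ranger and corrected them with SCTransform in Seurat 3.1 under R 3.6.2. The second deposited table of each library holds the natural log of 1 plus the same values and was used only to check them. All 7495 and 4409 deposited cells were used; 7394 and 4407 lie within the authors' limits on genes and mitochondrial share. Cells were clustered with Seurat 5.3.0 in R 4.3.3 on 30 principal components at resolutions of 0.45 (wild-type) and 0.3 (reporter), with forkhead genes kept out of the 3000 variable features. Clusters were named from markers fixed beforehand by a scoring rule revised after clusters were seen; 4 wild-type clusters (760 cells) and 1 reporter cluster (232 cells) stayed unnamed. Class names were rebuilt and need not match the authors' cells. A log2 ratio is that of class means plus 0.01, for genes with at least 20 counts in the classes compared, and a gene is called at 2-fold. Scrublet in scanpy 1.11.5 marked 7 (0.0934%) and 5 (0.1134%) cells as doublets, too few for the caller to have worked, and no cell was removed; an alternative left out the 5% of cells with the highest score. Every forkhead gene is accounted for, those with a class mean of at least 0.1 are described, and from each pathway list (hedgehog, mitotic, FoxO, FoxA and FoxC) the genes past 2-fold with the 3 highest class means could be named. Members and lists were chosen with earlier results of these data known. Other tools were Python 3.11.15, numpy 2.4.6, scipy 1.17.1 and matplotlib 3.10.9.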

Additional observations from a re-analysis of the deposited data

How the results depend on the processing

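No paired analysis was possible because each group was 1 library of pooled mice. Single ratios past 2-fold were recomputed in 884 values of 75 results: none changed sign, 818 stayed past 2-fold and 66 did not. Of 128 recomputed counts of 11 results, 112 were within 1.5 times the reported count and 16 were not. Thinning each cell to 1000 counts gave 8 members past 2-fold for epithelium (5 higher, 3 lower; reported 17), 3 for dividing epithelium (0 and 3; 6), 3 for CBFs2-like over CBFs1-like cells in the wild-type (2 and 1; 7) and 2 in the reporter library (1 and 1; 5), 1 for smooth muscle (1 and 0; 3) and 12 for endothelium (2 and 10; 20). A pseudocount of 0.1 gave 8 for epithelium (5 and 3), 3 for dividing epithelium (1 and 2), 3 for CBFs2-like over CBFs1-like cells in the wild-type (1 and 2) and 1 in the reporter library (0 and 1), 1 for smooth muscle (1 and 0), 12 for endothelium (1 and 11) and 1 for CTFs-like over CBFs-like reporter cells (1 and 0; reported 3). A filter of 100 counts gave 4 (2 and 2) and 3 (1 and 2) for CBFs2-like over CBFs1-like cells in the wild-type and reporter libraries. At a level of 0.2, 4 reporter members were described (reported 12). For these the cause was not tested, beyond the fewer genes that pass a filter on thinned or higher counts. Scaling to pooled counts moved the median log2 ratio of all genes for epithelium from 0.39 to 0.24, and gave 3 higher and 3 lower members for CTFs-like over CBFs-like wild-type cells (reported 3 and 2). Chosen after seeing the data, leaving out the 5% of cells with the highest doublet score left every reported count as it was except endothelium, 21 against 20. Counting the unnamed fibroblast cluster as CBFs-like gave 5, the unnamed reporter cluster as CTFs-like 3, and leaving out the reporter CBFs1-like clusters led by stress and chemokine genes 4 for CTFs-like over CBFs-like (3 and 1) and 4 for CBFs2-like over CBFs1-like cells (1 and 3).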

Other observations

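Cells outside the named classes also carried forkhead genes. A wild-type cluster of 20 cells led by Pcp4, Hand1 and Cckar, with 7 markers of interstitial cells of Cajal but too few cells to be named, had the highest Foxf1 (7.75) and Foxp2 (3.9) means of the wild-type clusters, with Foxf2 at 1.45. A cluster of 101 cells with pericyte markers had Foxf1 at 2.83 and Foxs1 at 0.327. In the reporter library, the unnamed cluster of 232 cells led by Ptprr and Nrg1 had Foxf1 above 0 in 68.5% of cells (mean 1.17), Foxf2 at 0.306 and Foxl1 at 0.147, and no cell with Foxp2.

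Corrected counts of Foxp1 sat at exactly 1 in most cells of some clusters with few genes per cell. This was so in 132 of 154 cells (85.7%) of an unnamed cluster led by C3, Pi16 and Hmcn2 (median 1732 genes), in 53 of 60 cells (88.3%) of the smaller smooth muscle-like cluster (1689.5 genes), and in 268 of 485 cells (55.3%) of an unnamed cluster led by Hbb-bs, Hba-a1 and mt-Rnr1 (1741 genes). In the other wild-type clusters it was so in 5.81% to 34.5% of cells. The part of the correction in these values was not tested, and a share of Foxp1 above 0 in such clusters cannot be read as a share of cells with a tag.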
